A study of Homo sapiens with 8 samples.

Results

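The genes described here are 10 components and feedback targets of the Wnt pathway, CTNNB1, APC, AXIN1, AXIN2, LGR5, TCF7, TCF7L2, NKD1, RNF43 and ZNRF3, taken by gene name from 57756 genes in the expression tables. All 10 were found. RNA bound to RPS6, which belongs to the small subunit of the ribosome, was recovered by RNA immunoprecipitation (RIP) from lysates of 4 cancer cell lines and sequenced beside an aliquot of the same lysate (input). The lines were HCT116 (colon cancer), DU145 (prostate cancer), SW1990 (pancreatic cancer) and a hepatocellular carcinoma line. Titles of the liver libraries read 3B, while other labels of the same libraries read Huh7. The line is called Hep3B here. No treatment is given in the labels, and all the lines are established cultures. Each line gave 1 input and 1 RIP library, so that the 4 lines serve as the replicates of the comparison of RIP with input, and a difference between lines has no replicate. No library of a control immunoprecipitation was analysed here.

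In the absence of a Wnt signal, β-catenin is held by a complex built on AXIN and APC scaffolds, phosphorylated and degraded. Wnt ligands bound to Frizzled receptors disable this complex, and β-catenin then enters the nucleus and activates genes with TCF/LEF transcription factors. Several targets feed back on the pathway: AXIN2 rebuilds the complex, NKD1 acts on Dishevelled, and the ubiquitin ligases RNF43 and ZNRF3 remove Frizzled from the cell surface unless R-spondin and LGR receptors remove the ligases. The pathway maintains intestinal stem cells, patterns metabolism in the liver lobule and is often mutated in colorectal and liver cancer.

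Input libraries held 35796276 to 54209591 fragments and RIP libraries 34630231 to 42610124. Levels are given as FPKM, fragments per kilobase of length and per 1000000 fragments of library. The length that FPKM implies for a gene was not the same in every library, so ratios of FPKM and of counts can differ. For example, APC in the Hep3B input and RIP was at 17.7 and 16.2 FPKM, but at 64.9 and 26.8 fragments per 1000000. Intervals are 95% Poisson intervals of the fragments and cover counting error only. Counts of fragments came from the deposited estimates, of which 92.7% to 94.1% per library were whole numbers within 0.02 once divided by 1 step per library. Of the tissue markers, the 5 liver genes summed to 6200 FPKM in the Hep3B input and to at most 17.0 in the other inputs. The other labels were less clear. In the HCT116 input, CDX1 and VIL1 were listed at 0 and CDX2, an intestinal transcription factor, was at 6.25 FPKM. In the DU145 input, the prostate genes KLK3, KLK2, ACPP and TMPRSS2 were listed at 0. In the SW1990 input, the duct genes KRT19 and SOX9 were at 229 and 60.6 FPKM, SOX9 being highest in this input, whereas KRT7 and MUC1 were at 3.17 and 1.16, CFTR was at 0.284, and CDX2 was at 86.6. The markers' part in the differences between lines was not tested.

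In the hg19 coordinates of the files, which give the merged locus of overlapping genes, CTNNB1 lies in chr3:41236328-42003922, APC in chr5:112043195-112258236, TCF7 in chr5:133450402-133706738, TCF7L2 in chr10:114710009-114927437 and LGR5 in chr12:71518865-71980090. AXIN1 lies in chr16:337440-402673, NKD1 in chr16:50582241-50670647, AXIN2 in chr17:63524681-64188202, RNF43 in chr17:56378592-56494956 and ZNRF3 in chr22:29279580-29453475. AXIN1 was alone in its locus. The other loci held 2 to 11 further genes, so that reads in overlapping parts may have been divided between genes.

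Promoter sequence from RefSeq (GRCh38.p14, a later build than that of the files) was found for 6 of the 10 genes, with 11 start sites. AXIN2, LGR5, NKD1 and ZNRF3 had no sequence there and were not searched. TCF/LEF factors bind a short core. The letters searched were CTTTGAA with its variants, CTTTGAT where the last base is changed, CTTTGTA where the base before it is changed and CTTTGTT where both are, on both strands from 250 bases before to 50 bases after each start. The variants differ at their end and cannot overlap each other on a strand. Of all 35116 promoters of this length, 13.8% held a match, as did 2 of the 11 promoters of the Wnt genes, both at internal starts of the TCF genes. The 30 bases around each match are shown because TCF7 and TCF7L2 differ below in both comparisons. Capitals mark the match, which is on the minus strand in TCF7, 50 bases before the start, and on the plus strand in TCF7L2, 133 bases before it. For the gene with the widest range between lines among those with a promoter (RNF43) and for the gene recovered in all 4 RIP libraries above every input (CTNNB1), the 250 bases before the outermost start are shown. Neither holds a match, and so neither has capitals.

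TCF7, chr5:134123557-134123586, plus strand: ggccccactggAACAAAGgaggagagaggc

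TCF7L2, chr10:113126489-113126518, plus strand: aaaatatcaggCTTTGTTcttttgattgaa

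RNF43, chr17:58417535-58417784, minus strand: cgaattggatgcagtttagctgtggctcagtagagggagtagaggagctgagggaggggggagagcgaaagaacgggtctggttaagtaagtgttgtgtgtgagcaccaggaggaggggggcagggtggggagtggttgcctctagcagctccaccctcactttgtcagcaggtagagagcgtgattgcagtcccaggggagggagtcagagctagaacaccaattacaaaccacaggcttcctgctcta

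CTNNB1, chr3:41199255-41199504, plus strand: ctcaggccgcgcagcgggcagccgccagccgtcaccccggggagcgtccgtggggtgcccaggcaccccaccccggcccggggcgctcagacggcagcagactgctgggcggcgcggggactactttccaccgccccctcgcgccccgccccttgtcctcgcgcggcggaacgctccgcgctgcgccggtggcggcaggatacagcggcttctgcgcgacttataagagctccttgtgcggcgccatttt

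The 300 bases of the RNF43 promoter held 54.3% G and C and those of the CTNNB1 promoter 74.0%, beside a median of 58.7% over all promoters. A match describes these letters only, and no binding was measured.

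The question asked of the RIP was which RNAs are more abundant with RPS6 than in the lysate as a whole. Of the 10 Wnt mRNAs, 7 were higher in RIP than in input, 2 were lower (APC and TCF7L2), and LGR5 did not pass the threshold. The test was edgeR's quasi-likelihood test with the cell line as a block and a Benjamini-Hochberg adjusted p under 0.05. Of 19921 genes tested, 26.5% were higher and 24.9% lower in RIP, and 51.6% of all calls were higher. With total library sizes in place of TMM factors the median over all genes moved by -0.35 and the share fell to 37.9%. Of 13561 protein-coding genes tested, 4377 were higher and 3533 lower with TMM factors. The median log2 fold change of the 10 genes was 0.96, beside -0.05 over all genes and 0.13 over protein-coding genes. The fold changes that follow are therefore relative to the other RNAs of a library.

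**Figure D1:**
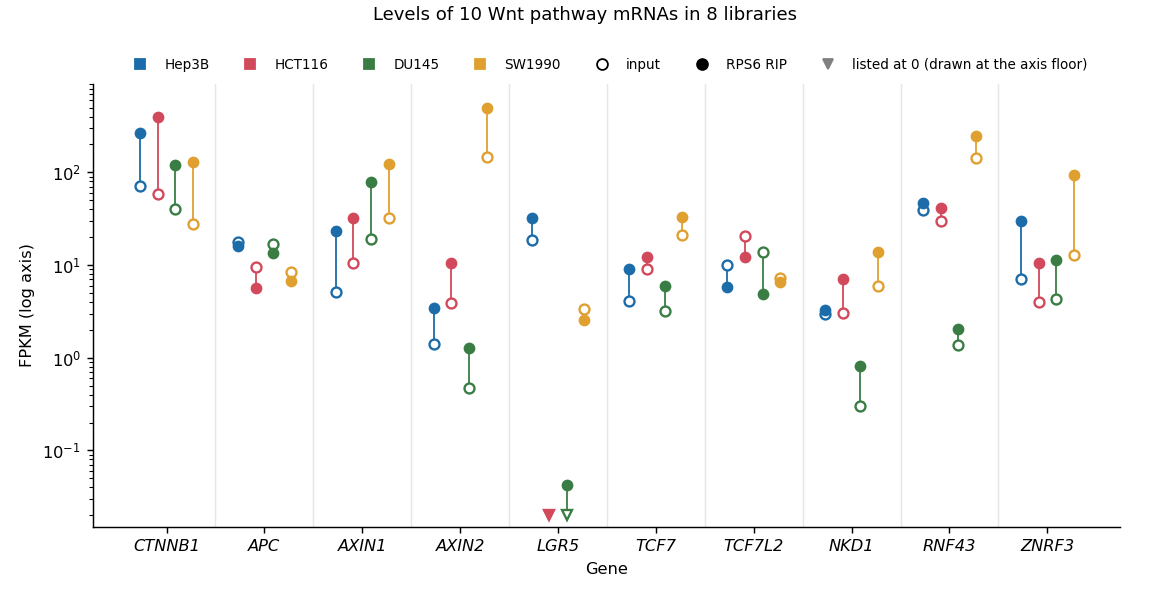
FPKM (log axis) of the 10 Wnt mRNAs in the input (open points) and RIP (filled points) library of each cell line, joined by a line, with triangles at the axis floor for values listed at 0. CTNNB1 and AXIN1 points rise in every line, APC and TCF7L2 points fall in every line, and AXIN2 spans 0.470 to 146 FPKM between inputs.

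CTNNB1, which encodes β-catenin, was at 70.5, 57.8, 40.5 and 27.7 FPKM in the Hep3B, HCT116, DU145 and SW1990 inputs and at 268, 393, 121 and 130 FPKM in the RIP libraries of the same lines. It was the only gene of the 10 whose input and RIP levels did not overlap, as was so for 19.1% of the genes tested. Its log2 fold change was 1.88 (SE 0.25, 4 pairs, edgeR, adjusted p = 1.34e-04). The RIP level was 6.80 times the input level in HCT116 and 2.98 to 4.71 times in the other lines. As a result the line with the highest CTNNB1 level was Hep3B among inputs and HCT116 among RIP libraries.

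The scaffolds of the β-catenin degradation complex went in opposite directions. AXIN1, the constitutive scaffold, was at 5.14, 10.5, 19.2 and 32.0 FPKM in the Hep3B, HCT116, DU145 and SW1990 inputs and at 23.2, 32.1, 79.2 and 122 FPKM in RIP. Its log2 fold change of 2.03 (SE 0.18, edgeR, adjusted p = 1.52e-05) was the highest of the 10 in this fit. It also varied least, with log2 ratios of 1.99 to 2.12 in the 4 lines (SD 0.06). Input and RIP ranges overlapped because the input of SW1990 exceeded the RIP of Hep3B, while within each line RIP was higher.

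APC, the partner scaffold, was at 17.7, 9.63, 16.8 and 8.41 FPKM in the Hep3B, HCT116, DU145 and SW1990 inputs and at 16.2, 5.69, 13.6 and 6.70 FPKM in RIP. All lines were lower in RIP and the ranges overlapped. On counts the log2 fold change was -0.88 (SE 0.20, edgeR, adjusted p = 0.00363), with -1.24 in SW1990 and -1.07 in Hep3B. FPKM gave a smaller difference, RIP levels of 0.590 to 0.919 times the input, and limma on log2(FPKM + 1) gave -0.34 (adjusted p = 0.151).

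AXIN2, the inducible scaffold, was at 1.40, 3.85, 0.470 and 146 FPKM in the Hep3B, HCT116, DU145 and SW1990 inputs and at 3.48, 10.4, 1.28 and 496 FPKM in RIP. All lines were higher in RIP, and the ranges overlapped because the lines themselves differed so widely. The log2 fold change was 1.45 (SE 0.25, edgeR, adjusted p = 7.19e-04). The DU145 values rest on 45 and 100 fragments, while SW1990 gave 21158 and 54398.

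The feedback ligases RNF43 and ZNRF3, which act on the same receptors, differed in size. ZNRF3 was at 7.06, 4.02, 4.33 and 12.8 FPKM in the Hep3B, HCT116, DU145 and SW1990 inputs and at 29.5, 10.6, 11.4 and 94.4 FPKM in RIP. Its log2 fold change was 1.85 (SE 0.26, edgeR, adjusted p = 1.75e-04). SW1990 stood highest in RIP, with 7.36 times its input against 2.63 to 4.18 times in the other lines.

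RNF43 was at 39.1, 29.8, 1.38 and 143 FPKM in the Hep3B, HCT116, DU145 and SW1990 inputs and at 46.6, 41.1, 2.04 and 250 FPKM in RIP. Each line was higher in RIP on this scale, at 1.19 to 1.74 times the input, although in DU145 the fragments per 1000000 were 3.93 in input and 3.83 in RIP before TMM factors. The log2 fold change of 0.66 (SE 0.19, edgeR, adjusted p = 0.0130) was the smallest among the genes called in this fit. It did not pass without HCT116 (log2 fold change 0.57, adjusted p = 0.058), with total library sizes (0.31, adjusted p = 0.200) or with limma on log2(FPKM + 1) (0.46, adjusted p = 0.066).

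NKD1, a Dishevelled-binding antagonist, was at 2.93, 3.07, 0.305 and 5.92 FPKM in the Hep3B, HCT116, DU145 and SW1990 inputs and at 3.31, 7.04, 0.823 and 13.9 FPKM in RIP. Every line was higher in RIP, least so in Hep3B. The log2 fold change was 1.18 (SE 0.22, edgeR, adjusted p = 0.00104).

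LGR5, the R-spondin receptor that marks intestinal stem cells, was at 18.4 FPKM in the Hep3B input and 32.1 in its RIP, and at 3.36 and 2.58 in SW1990. It was listed at 0 in both HCT116 libraries and in the DU145 input, and the DU145 RIP held 4 fragments. The pairs with appreciable counts thus lay on opposite sides of 0, with log2 ratios of 0.42 in Hep3B and -0.33 in SW1990. The log2 fold change over all pairs was 0.22 (SE 0.40, edgeR, adjusted p = 0.669).

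The transcription factors of the pathway also parted. TCF7 was at 4.08, 9.09, 3.17 and 20.9 FPKM in the Hep3B, HCT116, DU145 and SW1990 inputs and at 9.12, 12.2, 5.97 and 33.2 FPKM in RIP. It was higher in RIP in 4 of 4 lines, with a log2 fold change of 0.73 (SE 0.18, edgeR, adjusted p = 0.00578), and did not pass with total library sizes (0.38, adjusted p = 0.124).

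TCF7L2 was at 9.93, 20.8, 14.0 and 7.31 FPKM in the Hep3B, HCT116, DU145 and SW1990 inputs and at 5.78, 12.3, 4.86 and 6.53 FPKM in RIP. It was lower in RIP in 4 of 4 lines, with a log2 fold change of -0.83 (SE 0.19, edgeR, adjusted p = 0.00438). On FPKM the RIP level was lowest against its input in DU145, at 0.348 times, and nearest to it in SW1990, at 0.893 times. On counts the log2 ratio was lowest in Hep3B (-1.16), was -0.90 in DU145, and was -0.62 in both HCT116 and SW1990.

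**Figure D2:**
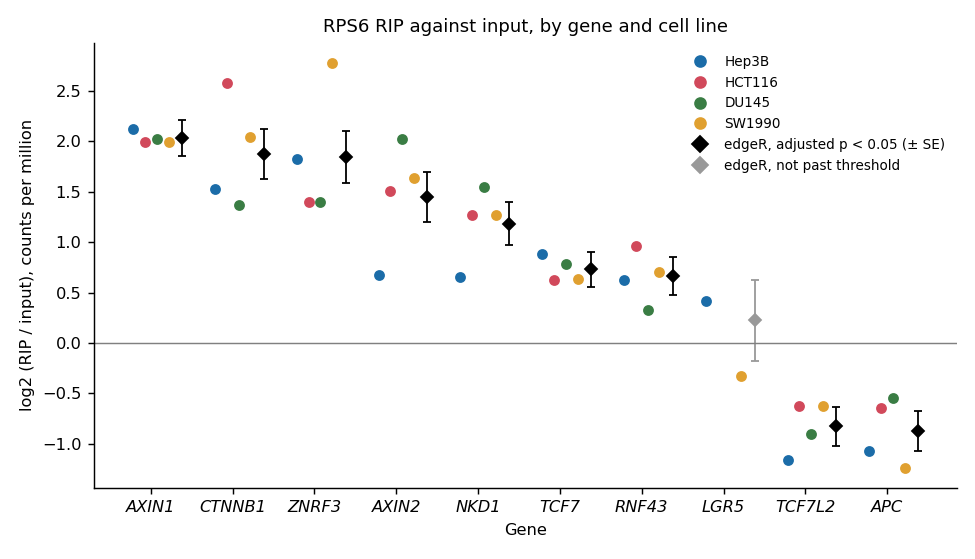
log2 ratio of RIP to input in counts per 1000000 with TMM factors, for each cell line (points; lines with LGR5 listed at 0 in input are left out) and from edgeR over all lines (diamonds, ± SE; grey where the adjusted p was not under 0.05). The 4 points of AXIN1 lie between 1.99 and 2.12, while those of ZNRF3 spread from 1.40 to 2.78, and all points of APC and TCF7L2 lie below 0.

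The opposite changes of TCF7 and TCF7L2 altered which TCF mRNA was the more abundant. In the inputs TCF7L2 was 2.44 times TCF7 in Hep3B, 2.29 times in HCT116 and 4.40 times in DU145, whereas in SW1990 TCF7 was 2.86 times TCF7L2. In the RIP libraries TCF7 was 1.58, 1.23 and 5.09 times TCF7L2 in Hep3B, DU145 and SW1990, and nearly equal to it in HCT116 (0.997 times). Of the summed FPKM of TCF7, TCF7L1, TCF7L2 and LEF1, TCF7L2 made up 46.8%, 61.9%, 71.9% and 15.9% in the Hep3B, HCT116, DU145 and SW1990 inputs. In RIP it made up 27.3%, 45.0%, 37.98% and 10.8%. LEF1, the remaining lymphoid-type factor of the family, made up 33.7% in the SW1990 input and was listed at 0 in the HCT116 and DU145 inputs. There 3 fragments, taken as the limit of a count of 0, are 0.0658 and 0.0553 fragments per 1000000. TCF7L1 and LEF1 did not pass the test (log2 fold changes -0.16 and 0.94, edgeR, adjusted p = 0.582 and 0.141).

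**Figure D3:**
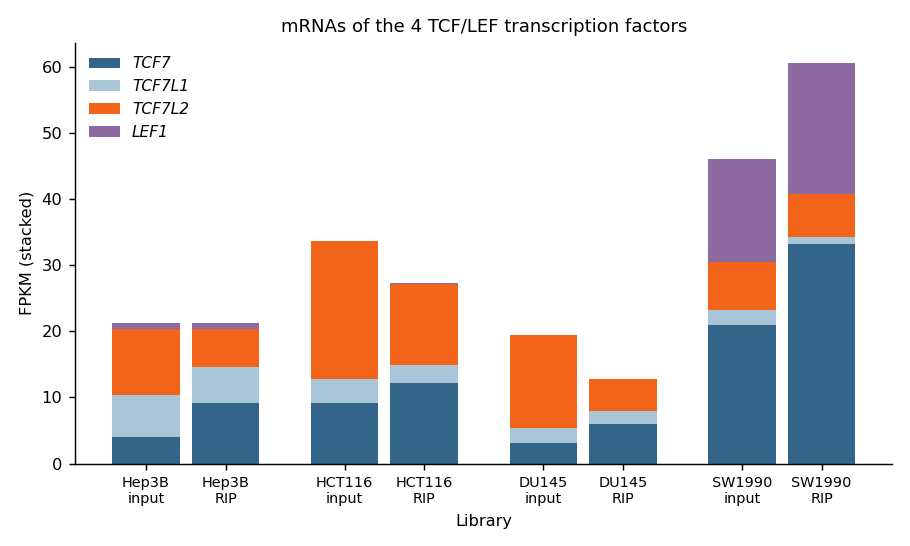
FPKM of the 4 TCF/LEF mRNAs, stacked, in the input and RIP library of each cell line. TCF7L2 is the widest band in the Hep3B, HCT116 and DU145 inputs, TCF7 in both SW1990 libraries, and LEF1 is visible in SW1990 and, at under 1 FPKM, in Hep3B.

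Between lines, SW1990 had the highest input level of 6 of the 10 mRNAs (AXIN1, AXIN2, TCF7, NKD1, RNF43 and ZNRF3), Hep3B of CTNNB1, APC and LGR5, and HCT116 of TCF7L2. These levels have 1 library per line and no test. Hep3B and HCT116 come from a table of their own, as do DU145 and SW1990, and levels across the tables rest on each table's normalization. On log2(FPKM + 1), AXIN2, TCF7 and RNF43 were at least 2-fold higher in the SW1990 input than in each other input, which was so for 6.42% of 20367 genes at 1 FPKM or more in any input. LGR5 was the only one at least 2-fold higher in Hep3B (9.56% of genes), and none of the 10 was so in HCT116 (3.39%) or DU145 (6.24%). On fragments per 1000000 with TMM factors, TCF7L2 in HCT116 passed this limit (1.39 on log2 above the next line) and TCF7 in SW1990 did not (0.99). NKD1 and RNF43 were at least 2-fold lower in DU145 than in each other input, beside 1.75% of genes. None of the 10 was 2-fold lower in HCT116 (2.96% of genes), SW1990 (2.20%) or Hep3B (5.92%) than in each other input.

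Of the genes measured above 0 in every input, AXIN2 had the widest range. The SW1990 input was 38.04 times that of HCT116, the next highest, and 311 times that of DU145, the lowest, and no neighbouring lines in this order had overlapping intervals. In SW1990 the inducible scaffold exceeded the constitutive one, with AXIN2 at 4.57 times AXIN1 in the input. In Hep3B, HCT116 and DU145 AXIN1 was 3.66, 2.72 and 40.8 times AXIN2. RNF43 in SW1990 was 3.66 times the next line and 104 times DU145. RNF43 was 5.54, 7.40 and 11.2 times ZNRF3 in the Hep3B, HCT116 and SW1990 inputs, but in DU145 ZNRF3 was 3.15 times RNF43. NKD1 was 19.4 times as high in SW1990 as in DU145. Its counting intervals in HCT116 and Hep3B overlapped on FPKM only. On fragments scaled to library size these intervals did not overlap, and HCT116 was the higher.

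LGR5 was present at 68.1 fragments per 1000000 in the Hep3B input. Against the 3 fragments that a count of 0 allows per library, this was at least 1035-fold higher than in HCT116 and at least 1231-fold higher than in DU145. Its homologue LGR4, an R-spondin receptor of wider expression, was measured in every line, at 58.4, 4.34, 29.4 and 12.2 FPKM in the Hep3B, HCT116, DU145 and SW1990 inputs. LGR4 was therefore 3.17 times LGR5 in Hep3B and 3.63 times in SW1990.

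The other genes differed less between lines. TCF7 was 6.60 times as high in SW1990 as in DU145, AXIN1 6.23 times as high in SW1990 as in Hep3B, and ZNRF3 3.19 times as high in SW1990 as in HCT116. ZNRF3 levels in DU145 and HCT116 had overlapping counting intervals. CTNNB1, TCF7L2 and APC ranged over 2.55, 2.85 and 2.10 times. The APC levels of Hep3B and DU145 had overlapping intervals, and on fragments per 1000000 with TMM factors DU145 was the higher. For TCF7L2 HCT116 was highest on both scales, while the lines below it were close on fragments per 1000000, at 31.1 in SW1990, 31.0 in DU145 and 25.2 in Hep3B.

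The RIP libraries kept the order of the 4 lines for 6 of the 10 mRNAs, AXIN1, AXIN2, TCF7, NKD1, RNF43 and ZNRF3, and kept the highest line for 9, all but CTNNB1. RIP and input of a line come from the same lysate and are not independent.

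The genes with the profile most like that of AXIN2 were named by the distance between log2(FPKM + 1) profiles over the 8 libraries, each centred on its mean. They were PRF1 (perforin, distance 1.40), ALDH3A1 (an aldehyde dehydrogenase, 1.61), CDX2 (1.64), CLDN2 (a claudin of tight junctions, 2.34) and SLC7A8 (an amino acid transporter, 2.53). In the SW1990 input they were at 47.5, 51.3, 86.6, 68.8 and 42.3 FPKM. In every other input each was at 6.25 FPKM or less, so that the likeness rests on the SW1990 pair of libraries.

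Beyond the 10, 87 further genes of the pathway were listed by role, of which 77 were tested. Of these, 39 were higher in RIP and 3 lower, with a median log2 fold change of 0.80, beside 26.5% higher and 24.9% lower over all genes tested. Of 13561 protein-coding genes tested, 4377 were higher and 3533 lower. With total library sizes the counts for the further pathway genes were 25 and 7, and without SW1990 they were 32 and 2 of 76. Receptors and co-receptors had the most calls, with 10 of 14 tested higher and 2 lower. Cytoplasmic transducers had 8 of 12 higher, targets 7 of 10, nuclear factors 6 of 11 and Wnt ligands 4 of 16, with none lower. The share of ligands lay near that over all genes, and without SW1990 2 of 15 ligands were higher. Both genes for ligand secretion, PORCN and WLS, were higher, of which 1 remained higher without SW1990, and 1 of 7 secreted inhibitors (NOTUM) was higher. In the R-spondin axis LGR6 was higher and RSPO1 lower, of 5 tested. The RSPO1 call rests on input levels of 0.103 to 0.529 FPKM, and neither call held without SW1990.

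**Figure D4:**
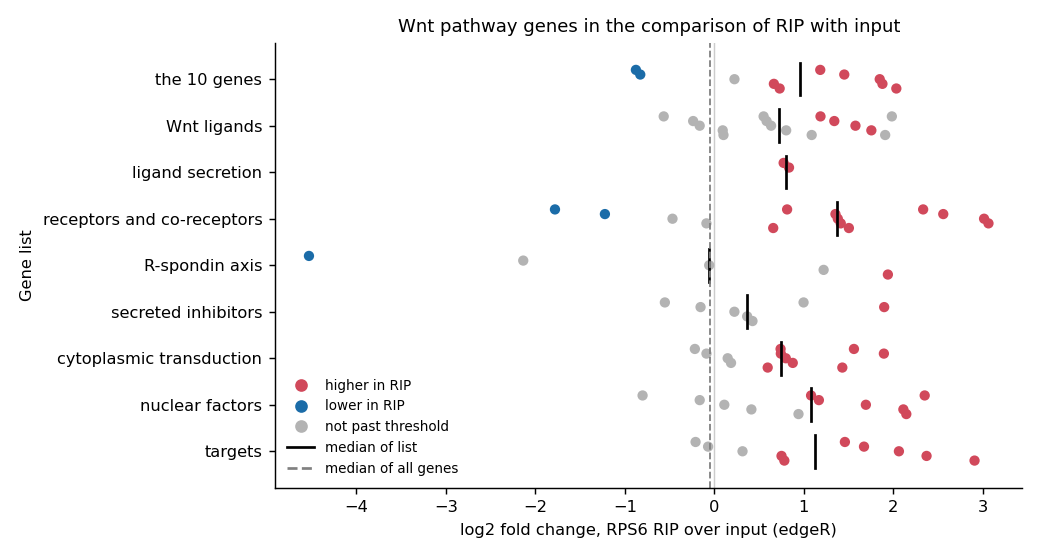
edgeR log2 fold change of RIP over input for each tested gene of the Wnt pathway lists (points; red higher, blue lower, grey not past the threshold), with the median of each list (black bar) and of all genes (dashed line). List medians lie between -0.06 (R-spondin axis) and 1.37 (receptors and co-receptors), and blue points occur among the 10 genes, the receptors and the R-spondin axis.

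Among receptors the Frizzled genes divided unevenly. FZD1, FZD2, FZD5, FZD7, FZD8 and FZD9 were called higher, FZD3 and FZD6 lower, and FZD4 did not pass. FZD9 (log2 fold change 3.06, SE 0.36) and FZD8 (3.01, SE 0.34) rose, as did EPHB3, an ephrin receptor and Wnt target (2.91, SE 0.25), ROR2, a Wnt co-receptor (2.56, SE 0.51), and SP5, a target that encodes a zinc finger factor (2.37, SE 0.24). Their edgeR adjusted p was between 1.47e-05 and 0.00185. These were the 5 highest in this fit, and the order among them changed with the setting. Input levels were low in part of these genes. They were 0.186 to 0.981 FPKM for FZD9, 0.0170 to 2.17 for FZD8, 0.00554 to 4.80 for EPHB3 and 0.644 to 14.6 for SP5. ROR2 was listed at 0 in the Hep3B and DU145 inputs. Its fold change was 3.93 without HCT116 and 3.70 with DESeq2, above FZD9 in both, and did not pass with limma on log2(FPKM + 1) (0.72, adjusted p = 0.061). FZD3 (-1.78, SE 0.21) and FZD6 (-1.22, SE 0.18) fell in 4 of 4 lines, with edgeR adjusted p = 6.44e-05 and 2.90e-04. FZD6 went from 9.65, 13.2, 51.3 and 11.04 FPKM in the Hep3B, HCT116, DU145 and SW1990 inputs to 5.71, 7.002, 25.4 and 7.11 in RIP, where each line was lower although the ranges overlapped.

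Each line had its own high pathway genes in input. Hep3B stood out for FZD5, a Frizzled receptor, with 105 FPKM against 5.89 or less elsewhere, and for DKK1, a secreted inhibitor of LRP co-receptors, with 1044 FPKM against 245 or less. HCT116 had the ligand WNT16 at 68.4 FPKM, with 1.85 in SW1990 and 0 listed in the other lines, and ROR2 at 6.45 FPKM. DU145 had the ligand WNT7B at 31.7 FPKM, against 4.51 or less, and the inhibitor SFRP1 at 11.6 FPKM, with 0 listed in the other lines. SW1990 had ASCL2, a stem cell factor of the intestine, at 153 FPKM against 0.0401 or less, and BMP4, a growth factor, at 399 FPKM against 49.7 or less.

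Of these line-specific genes WNT7B was higher in RIP (log2 fold change 1.75, SE 0.19, edgeR, adjusted p = 4.51e-05), as were BMP4 (0.78, SE 0.20, adjusted p = 0.00859) and FZD5 (0.81, SE 0.25, adjusted p = 0.0204). The FZD5 call did not hold without Hep3B (0.52, adjusted p = 0.116) or without SW1990 (0.67, adjusted p = 0.088), nor that of BMP4 without DU145 (0.72, adjusted p = 0.053). With total library sizes neither FZD5 (0.46, adjusted p = 0.189) nor BMP4 (0.44, adjusted p = 0.118) passed, while WNT16 was lower in RIP (-0.98, adjusted p = 0.025). DKK1, WNT16, SFRP1 and ASCL2 had log2 fold changes of 0.37, -0.57, 0.22 and 0.31 and did not pass with TMM factors (edgeR, adjusted p = 0.147 to 0.729).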

How the data were processed

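RNA of 4 input and 4 RPS6 RIP libraries was sequenced from TruSeq stranded total RNA libraries. Submitters' processing notes name CASAVA 1.8, TopHat, TopHat2 2.0.9 and hg19, and the counting tool and annotation are not given in the sources used here. The authors deposited FPKM and estimated counts per gene, which are scaled by a factor per library and need not be whole, in 2 tables. Files with ratios (fold changes), p-values and q-values of the authors' own comparisons were not used. The estimated counts were rounded. edgeR 4.0.16 in R 4.3.3 (quasi-likelihood test, TMM, a mean of at least 10 counts, the cell line as a block, Benjamini-Hochberg adjustment, threshold 0.05) was tested on simulated data. There it recovered 34 of 98 genes changed by 1 on log2 (34.7%) and 69 of 97 changed by 2 (71.1%). Of its 105 calls 2 were false. A gene that did not pass may therefore still differ. The simulated data had only these changed genes among 19520 run, whereas 26.5% were called higher and 24.9% lower in the real comparison. The simulated rates need not carry over to the real comparison. Each RIP library's deviations from its group correlated with its own input (r 0.84 to 0.89 across 19921 genes) and negatively with other inputs (-0.47 to -0.04). Taking deviations from the group by itself makes the correlations with other inputs negative on average where that with the own input is high. The negative values are therefore no separate support for the pairing. Genes are not independent replicates, so these correlations are a description. Nothing says that cultures were repeated within a line. Shares and levels used FPKM, and levels between lines were not tested. Alternatives were DESeq2 1.42.0, limma 3.58.1 on log2(FPKM + 1) and log2(FPKM + 0.1), total library sizes, other count minimums, no block and leaving out each line. Named pathway genes were up to 5 highest and 5 lowest calls with the same direction in 4 of 4 lines (2 genes met the latter) and, per line, the 2 with input farthest above the median of the others. The 10 genes and the lists were chosen with earlier results of these data known.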

Additional observations from a re-analysis of the deposited data

Results flagged for a closer look

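The RIP level of LGR5 exceeded the input level in Hep3B (log2 ratio 0.42) and was below it in SW1990 (-0.33), a difference of 0.75 that was not tested. DKK1 likewise was higher in RIP in SW1990 (0.68) and lower in DU145 (-0.25), a difference of 0.93 that was not tested.

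In several pathway genes 1 line lay far from the other 3 by Dixon's criterion for 4 samples, which chance meets in about 1 in 20 groups. FZD5, SFRP1, ASCL2 and ROR2 had been named for their height in 1 input, and FZD3 and FZD6 for their fold change. On log2(FPKM + 1), FZD5 stood at 6.73 in the Hep3B input against 2.22 to 2.78 in the other lines and at 8.27 in the Hep3B RIP against 2.85 to 3.31. SFRP1 stood at 3.65 in the DU145 input and 3.999 in the DU145 RIP, with 0 in the other lines. ASCL2 stood at 7.27 in the SW1990 input and 7.63 in the SW1990 RIP, against at most 0.06 elsewhere. ROR2 stood at 2.90 in the HCT116 input against 0 to 0.42. FZD3 was low in the Hep3B input, at 0.39 against 3.27 to 3.86. FZD6 was high in the DU145 RIP, at 4.72 against 2.75 to 3.02. The log2 ratio of RIP to input of FZD3 was -1.37 in SW1990, against -1.94 to -1.89 in the other lines. None of the 10 genes had such a line in its input or RIP levels.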

How the results depend on the processing

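Without the replicate block, which ignores that a line gave both libraries, 2 of the 10 genes, CTNNB1 and AXIN1, were called (2 higher and 0 lower), with 6 other pathway genes higher and 0 lower, and 2771 of all genes (1427 higher, 1344 lower). With total library sizes, 25 other pathway genes were higher and 7 lower. With limma, 1 of the 10 was lower on log2(FPKM + 1) and 0 on log2(FPKM + 0.1). Leaving out each line gave 8 to 9 of the 10 called (6 to 7 higher, 2 to 2 lower), 32 to 37 other pathway genes higher and 2 to 4 lower, and 8532 to 9891 genes in all (4448 to 4808 higher, 4084 to 5083 lower). The direction turned for LGR5 (-0.038) and SFRP1 (-0.14) with total library sizes, and for ASCL2 with DESeq2 (-0.76), total library sizes (-0.016) and limma on log2(FPKM + 0.1) (-0.030), none of them called. CTNNB1 in Hep3B minus HCT116 was -0.55 on log2 in the RIP libraries, and APC in Hep3B minus DU145 was -0.14 on fragments per 1000000 with TMM factors. DESeq2, the other count minimums and the recovered fragments, an alternative chosen after seeing the data, kept every call on the 10 genes. With limma on log2(FPKM + 0.1) TCF7L2 had an adjusted p of 0.058. The causes were not tested. Counting error limits AXIN2, NKD1 and RNF43 in DU145, AXIN2 in Hep3B and LGR5 in HCT116 and DU145 most, and 1 library per line leaves differences between lines without replicate error.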
